A study of Mus musculus with 6 samples.

Results

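The 67 genes described here encode voltage-gated calcium channels (Cacna1, Cacna2d, Cacnb and Cacng), voltage-gated sodium channels (Scn), the epithelial sodium channel (Scnn1), the pacemaker channels (Hcn) and the transient receptor potential (TRP) channels. They were chosen by gene symbol from the 23845 genes of a deposited count table, with Trpm5 left out. The 6 RNA-seq libraries, 2 in each of 3 groups, hold intestinal epithelium of mice. EYFP cells were flow-sorted by a fluorescent Neurog3 reporter from mice with 2 Neurog3 alleles (genotype Neurog3+/+EYFP, on a background of C57BL6 and CD1 together). EGFP cells were likewise sorted from mice with 1 Neurog3 allele (Neurog3+/-EGFP, C57BL6). Wild-type (WT) epithelium came from C57BL6 mice for which no reporter is named. Its titles point to duodenum, and whether it was sorted was not stated. Age and sex of the mice, the number pooled per library, the sort gates and the gut segment of the sorted cells were not stated in the labels. Nothing states that the libraries of a group came from separate animals, so p-values measure the spread between these libraries.

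Gut progenitors need the transcription factor Neurog3 to become enteroendocrine cells, which secrete hormones and are electrically excitable. Sodium channels and cation-permeable TRP channels depolarise the membrane, voltage-gated calcium channels then open, and the calcium that enters triggers the release of hormone granules. A calcium channel holds a pore-forming subunit (Cacna1) and auxiliary subunits that bring it to the surface and tune its gating (Cacna2d, Cacnb). The TRP channel Trpa1, a receptor for irritants, is known in the serotonin-secreting enterochromaffin cells. The epithelial sodium channel and some TRP channels instead serve ion uptake in absorptive epithelium.

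Total estimated counts ranged from 7938358 to 20589683 per library. Values below are CPM, counts relative to the TMM-scaled library total, in the order replicate 1, replicate 2. Neurog3 itself stood at 563 and 348 CPM in EYFP cells, 120 and 179 CPM in EGFP cells, and 6.0 and 6.39 CPM in WT epithelium. Xist is the RNA that coats the silent X of female cells. It was at 0.634 and 2.36 CPM in EYFP cells and at 966 and 969 CPM in EGFP cells. Ddx3y, a gene of the Y chromosome, was at 37.3 and 39.3 CPM in EYFP cells and at 0 and 0 CPM in EGFP cells. Strain, reporter and these sex-linked transcripts thus differed together with the number of alleles and cannot be told apart from it. The WT libraries differed from each other, with Xist at 1.17 and 726 CPM and Ddx3y at 62.4 and 0.121 CPM. The summed level of 8 enteroendocrine markers was 66000 to 67500 CPM in EYFP cells, 15100 to 22700 CPM in EGFP cells and 724 to 853 CPM in WT epithelium.

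Channel genes of excitable cells were more abundant in EYFP than in EGFP cells. Summed over the 67 genes, the level was 3383 and 3348 CPM in EYFP cells, 966 and 1244 CPM in EGFP cells, and 430 and 537.3 CPM in WT epithelium. Of the 67, 40 passed the filter on low counts and were tested with edgeR's quasi-likelihood test, adjusted over all 13935 genes tested (adjusted p under 0.05). Between EYFP and EGFP cells 22 passed as higher and 4 as lower, and 14 missed the threshold. Over all genes tested, 16.8% were higher and 19.4% were lower. Both EYFP libraries were above both EGFP libraries for 29 of the 40 and below them for 5, where 37.3% and 37% of all genes tested were. The median log2 fold change (EYFP over EGFP) was 1.56 for the 40 and 0.01 for all genes tested. The filter itself favours genes that are high in a group, and 5 of the 40 passed it through EYFP libraries alone. Of the 16 that were above its cutoff in every library, 11 were higher and 3 were lower. In bulk RNA, fewer cells of a type and less RNA per cell cannot be told apart. The summed level of enteroendocrine markers moved in the same direction as the rises below, and its part in them was not tested. Chgb, at 47150 and 33110 CPM in EYFP cells, held the largest part of that sum. Chga, Chgb, Neurod1, Tph1 and Gcg were higher in EYFP than in EGFP cells. Cck, Sct and Gip did not pass (edgeR adjusted p = 0.186, 0.0797 and 0.695).

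**Figure D1:**
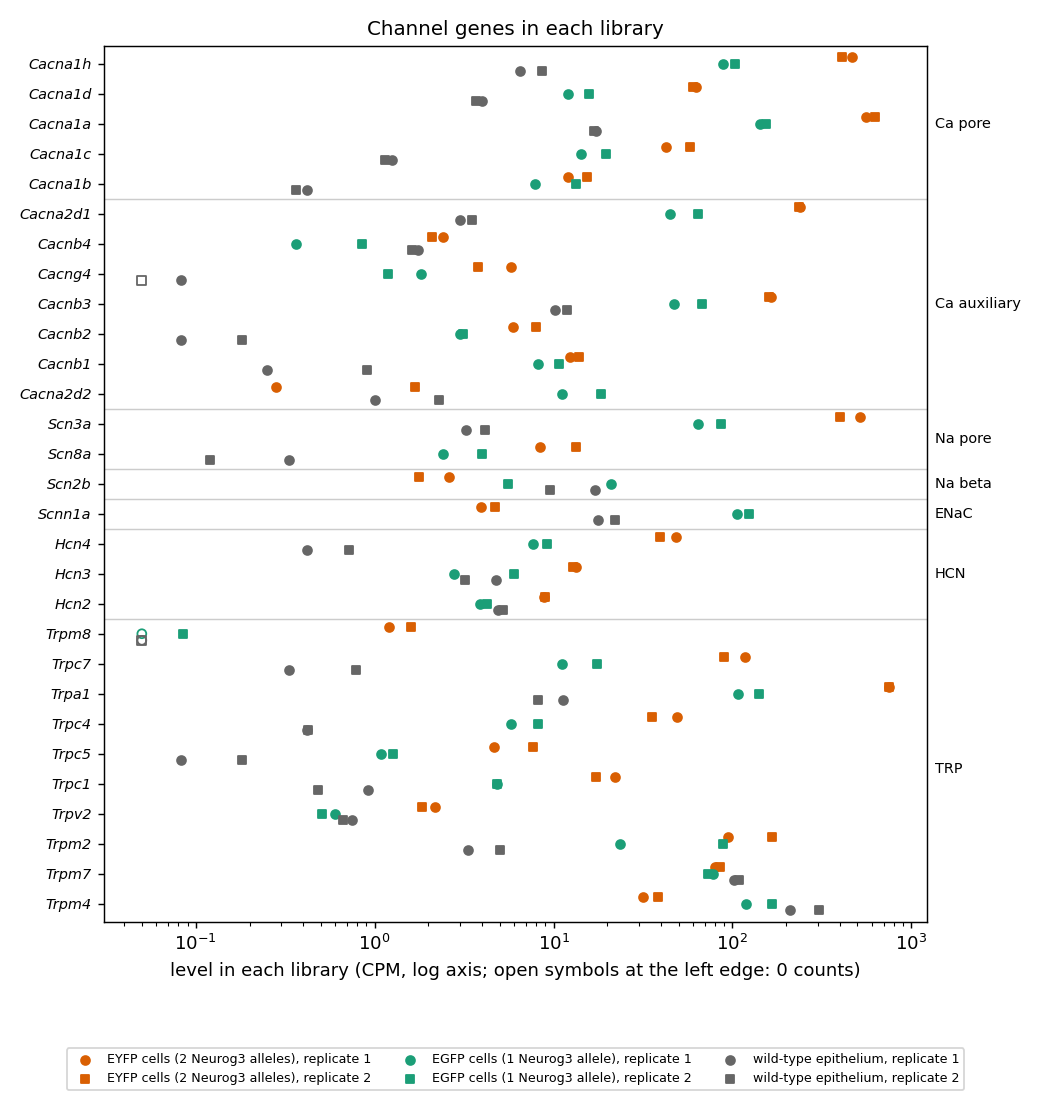
Level of the channel genes named below by the rule in each of the 6 libraries, in CPM on a log axis, with a circle for replicate 1, a square for replicate 2 and open symbols for 0 counts. Most EYFP points lie to the right of the EGFP points and far to the right of the wild-type points; Cacna2d2, Scn2b, Scnn1a and Trpm4 run the other way between EYFP and EGFP cells.

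Of the 6 pore-forming calcium channel genes tested, 4 were higher in EYFP than in EGFP cells. Cacna1a, the pore of P/Q-type channels that drive transmitter release at synapses (chromosome 8, 84338631 to 84640251 in mm10), stood at 559 and 629 CPM in EYFP cells, 143 and 154 CPM in EGFP cells, and 17.3 and 16.8 CPM in WT epithelium. The 3 groups did not overlap, and each pair of replicates lay close together. Its log2 fold change was 2.0 ± 0.15 (SE; edgeR adjusted p = 0.000233). Cacna1h, the pore of a low-voltage-activated T-type channel (chromosome 17, 25374285 to 25436334), stood at 468.5 and 408 CPM in EYFP cells, 89.1 and 103 CPM in EGFP cells, and 6.50 and 8.62 CPM in WT epithelium. It showed the same order of groups without overlap, with a log2 fold change of 2.19 ± 0.18 (edgeR adjusted p = 0.000273).

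The L-type pore genes rose as well. Cacna1d, an L-type pore that opens at more negative voltages than other L-type channels, stood at 62.2 and 60.5 CPM in EYFP cells, 12.1 and 15.7 CPM in EGFP cells, and 3.997 and 3.68 CPM in WT epithelium (EYFP over EGFP, log2 fold change 2.14 ± 0.19). Cacna1c, the L-type pore of heart and smooth muscle, stood at 42.6 and 57.7 CPM in EYFP cells, 14.2 and 19.5 CPM in EGFP cells, and 1.25 and 1.15 CPM in WT epithelium (1.56 ± 0.23). Both were past the edgeR test, with adjusted p of 0.000349 and 0.0021. Cacna1b, the pore of N-type channels of neurons, did not pass: it stood at 12.0 and 15.4 CPM in EYFP cells and 7.84 and 13.4 CPM in EGFP cells, which overlap (log2 fold change 0.35 ± 0.31, with an edgeR adjusted p of 0.406). Cacna1g, a T-type pore, had 11 and 22 counts in EYFP cells and 3 and 5 counts in EGFP cells and did not pass (edgeR adjusted p = 0.0918). Cacna1e, Cacna1f, Cacna1i and Cacna1s, the pores of the R-type channel and of channels known from retina, brain and skeletal muscle, held at most 5 counts in any library and were not tested.

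The auxiliary calcium channel subunits split by isoform. Cacna2d1, an alpha2delta subunit and the target of the gabapentin drugs (chromosome 5, 15934264 to 16374511), stood at 239 and 234 CPM in EYFP cells, 44.9 and 64.3 CPM in EGFP cells, and 2.998 and 3.50 CPM in WT epithelium. It was higher in EYFP than in EGFP cells by 2.11 ± 0.19 on the log2 scale (edgeR adjusted p = 0.000388). Its paralog Cacna2d2 (chromosome 9, 107399733 to 107529346) ran the other way, at 0.282 and 1.68 CPM in EYFP cells, 11.2 and 18.4 CPM in EGFP cells, and 0.999 and 2.29 CPM in WT epithelium. The log2 fold change of Cacna2d2 was -3.96 ± 0.74 (edgeR adjusted p = 0.00759), and it was -3.14 and -5.68 without EYFP replicates 1 and 2. Both EGFP libraries were above the other 4 for this gene, while for Cacna2d1 they lay between EYFP and WT.

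Among the intracellular beta subunits, Cacnb3 was the most abundant per transcript length in every library of EYFP and EGFP cells. It stood at 164 and 159 CPM in EYFP cells, 47.2 and 68.0 CPM in EGFP cells, and 10.2 and 11.9 CPM in WT epithelium (EYFP over EGFP, log2 fold change 1.48 ± 0.19, edgeR adjusted p = 0.00124). Cacnb2 stood at 5.92 and 7.99 CPM in EYFP cells and 3.02 and 3.13 CPM in EGFP cells, and Cacnb4 at 2.40 and 2.10 CPM against 0.362 and 0.846 CPM. Both passed with all libraries (log2 fold changes 1.17 ± 0.37 and 1.83 ± 0.53), but the edgeR adjusted p rose to between 0.0783 and 0.211 for Cacnb2 and between 0.0501 and 0.151 for Cacnb4 when any 1 EYFP or EGFP library was left out, and to 0.0503 for Cacnb4 without WT replicate 1. Without EGFP replicate 2, which leaves 3 counts for Cacnb4 in EGFP cells, its level was 6.25-fold higher in EYFP cells (95% counting interval 2.04 to 31.2). Cacnb1, the beta subunit of skeletal muscle that neurons also use, had 12.3 and 14.0 CPM in EYFP cells and 8.2 and 10.7 CPM in EGFP cells and did not pass (edgeR adjusted p = 0.349). Cacng4, a gamma-family protein that also escorts AMPA receptors, had 5.78 and 3.79 CPM in EYFP cells and 1.81 and 1.18 CPM in EGFP cells. Its log2 fold change of 1.69 ± 0.52 passed (edgeR adjusted p = 0.0381), but not when any 1 of these 4 libraries was left out (adjusted p from 0.0671 to 0.199). The other 7 Cacng genes, Cacna2d3 and Cacna2d4 were below the filter.

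**Figure D2:**
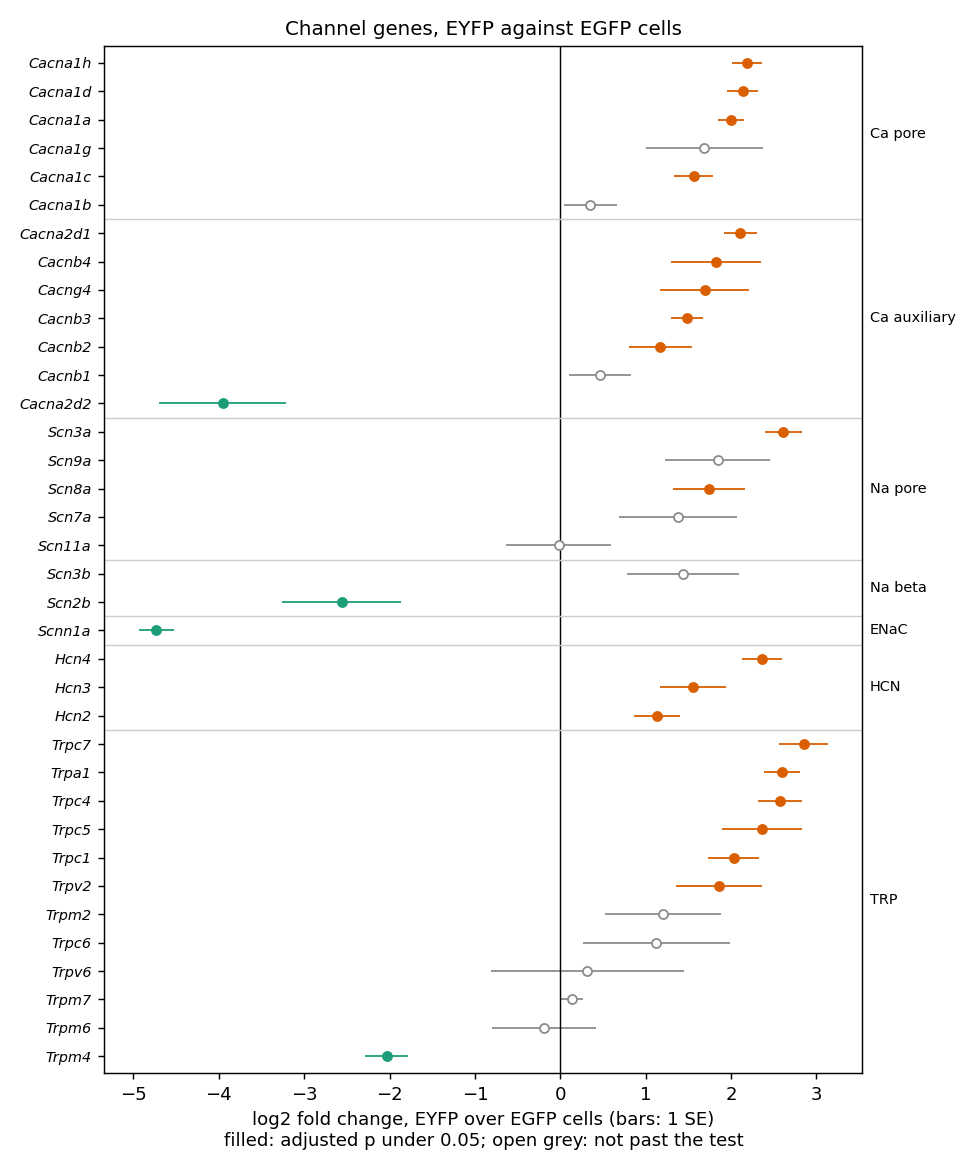
Log2 fold change of tested channel genes, EYFP over EGFP cells, with bars of 1 SE, grouped by family; filled points passed the edgeR test and open grey points did not. Trpm8, at 1 count over both EGFP libraries, and Trpc2, at 0 counts in 2 of the 4 libraries, are left out. The calcium pore genes and the Hcn genes shown lie right of 0, while Cacna2d2, Scn2b, Scnn1a and Trpm4 lie left of it.

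Because many of these genes moved together, their promoter windows from RefSeq (GRCm38.p6, 250 bases before to 50 after a start site) were searched for CAGATG and its reverse complement CATCTG, a form of the E-box that factors of the Neurog3 and Neurod1 family bind. Windows were found for 51 of the 67 genes. Of the 22 genes that were higher in EYFP than in EGFP cells, 15 had a window. Cacna1a, Cacna1h, Scn3a and Trpa1 had none and were not searched. The letters occurred in 4 of the 25 windows (16.0%) of those 15 genes and in 5634 of all 32817 windows (17.2%). These shares were close. Windows of 4 genes that were higher are shown 5′ to 3′, the first 2 with the letters and the other two without, and capitals mark CAGATG or CATCTG. Their positions are chr2:14823842-14824141 (plus strand) for Cacnb2, chr15:98632078-98632377 (plus strand) for Cacnb3, chr9:58822699-58822998 (plus strand) for the pacemaker channel gene Hcn4 and chr13:56895740-56896039 (minus strand) for the TRP channel gene Trpc7.
Cacnb2: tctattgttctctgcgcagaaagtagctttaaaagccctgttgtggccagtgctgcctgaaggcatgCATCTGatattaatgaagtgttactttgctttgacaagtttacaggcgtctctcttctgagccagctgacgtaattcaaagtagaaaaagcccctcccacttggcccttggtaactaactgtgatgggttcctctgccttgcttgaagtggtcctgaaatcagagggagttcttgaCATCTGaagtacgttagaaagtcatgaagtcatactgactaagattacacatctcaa
Cacnb3: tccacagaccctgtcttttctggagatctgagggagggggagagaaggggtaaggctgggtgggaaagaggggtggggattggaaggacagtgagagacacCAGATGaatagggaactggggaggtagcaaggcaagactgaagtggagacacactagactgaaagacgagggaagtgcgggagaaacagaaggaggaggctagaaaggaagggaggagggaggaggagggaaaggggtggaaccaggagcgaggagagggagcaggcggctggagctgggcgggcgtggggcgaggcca
Hcn4: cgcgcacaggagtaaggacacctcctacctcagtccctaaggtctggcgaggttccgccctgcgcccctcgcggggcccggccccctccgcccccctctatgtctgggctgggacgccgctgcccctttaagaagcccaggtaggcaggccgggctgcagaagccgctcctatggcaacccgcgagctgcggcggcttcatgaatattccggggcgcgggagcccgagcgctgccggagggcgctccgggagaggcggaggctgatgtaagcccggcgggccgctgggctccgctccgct
Trpc7: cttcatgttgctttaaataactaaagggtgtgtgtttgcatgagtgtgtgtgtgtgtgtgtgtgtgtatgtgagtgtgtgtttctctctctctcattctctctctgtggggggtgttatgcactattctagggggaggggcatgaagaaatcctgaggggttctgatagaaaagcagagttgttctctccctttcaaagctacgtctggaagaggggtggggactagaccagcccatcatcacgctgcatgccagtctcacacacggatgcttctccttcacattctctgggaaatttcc
Cacnb2 and Cacnb3 each have another window without the letters. A match is a run of letters and does not show that a factor binds there.

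Among sodium channel pores, Scn3a was the abundant one. Scn3a, a channel known from embryonic neurons and from enteroendocrine cells (chromosome 2, 65457118 to 65567591), stood at 519.5 and 401 CPM in EYFP cells, 63.9 and 86.1 CPM in EGFP cells, and 3.25 and 4.16 CPM in WT epithelium. The groups did not overlap, and the log2 fold change between EYFP and EGFP cells was 2.62 ± 0.22 (edgeR adjusted p = 0.000286). Scn8a, the pore of nodes of Ranvier in neurons, stood at 8.46 and 13.3 CPM in EYFP cells, 2.41 and 3.97 CPM in EGFP cells, and 0.333 and 0.121 CPM in WT epithelium. It passed (1.75 ± 0.42, edgeR adjusted p = 0.0161) but not without EYFP replicate 2 (adjusted p = 0.107) or EGFP replicate 1 (0.106). Scn9a, a pain-fibre sodium channel, stood at 3.52 and 7.49 CPM in EYFP cells and 0.844 and 2.11 CPM in EGFP cells, with 0 counts in WT epithelium, and missed the threshold (edgeR adjusted p = 0.0544). It passed with no filter on low counts (0.0254), in the DESeq2 Wald test (0.0453) and in the edgeR fit to only the 4 libraries compared (0.0405). Scn11a, known from sensory neurons, was at 1.83 and 1.94 CPM in EYFP cells and 2.90 and 1.02 CPM in EGFP cells, which overlap, and was at 0 counts in both WT libraries. Scn7a, a sodium-sensing relative, stood at 1.34 and 2.36 CPM in EYFP cells and 0.724 and 0.676 CPM in EGFP cells and did not pass (edgeR adjusted p = 0.156).

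Of the small beta subunits of sodium channels, Scn2b was lower in EYFP than in EGFP cells and Scn3b did not pass. Scn2b stood at 2.61 and 1.77 CPM in EYFP cells, 20.9 and 5.58 CPM in EGFP cells, and 17.0 and 9.59 CPM in WT epithelium. It was lower in EYFP cells (log2 fold change -2.56 ± 0.69, edgeR adjusted p = 0.0316), a call that was lost without EYFP replicate 1 (adjusted p = 0.108), EYFP replicate 2 (0.152) or EGFP replicate 1, where the value was -1.29 (0.128), and with no filter on low counts (0.0949); without EGFP replicate 2 it was -3.24. Its estimated counts were not whole numbers in any of the 6 libraries, a sign of reads divided between genes, and the gene Gm10684 overlaps it, so its values are uncertain. Scn3b stood at 4.51 and 17.3 CPM in EYFP cells and 3.02 and 4.90 CPM in EGFP cells and did not pass (edgeR adjusted p = 0.13; 0.0223 without EYFP replicate 1).

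The epithelial sodium channel gene Scnn1a was far lower in EYFP than in EGFP cells. Scnn1a encodes the alpha subunit, through which absorptive epithelium takes up sodium (chromosome 6, 125314271 to 125344943). It stood at 3.95 and 4.71 CPM in EYFP cells, 107 and 123 CPM in EGFP cells, and 17.6 and 21.9 CPM in WT epithelium, so that EGFP cells were highest and EYFP cells lowest without overlap. The log2 fold change was -4.73 ± 0.20 for EYFP against EGFP cells, 2.54 ± 0.18 for EGFP cells against WT and -2.20 ± 0.19 for EYFP cells against WT (edgeR adjusted p of 6.95e-05, 5.17e-05 and 5.29e-05). The genes of the other two subunits, Scnn1b and Scnn1g, had 0 counts in all 6 libraries. Markers of other secretory cells differed in the same direction between the sorted groups. The sum of 8 goblet cell markers was 690 to 1810 CPM in EYFP cells, 60900 to 101000 CPM in EGFP cells and 5390 to 6990 CPM in WT epithelium. The sum of 6 Paneth cell markers was 312 to 586 CPM in EYFP cells, 11000 to 13100 CPM in EGFP cells and 10800 to 16700 CPM in WT epithelium. Their part in the values of Scnn1a, Cacna2d2 and Trpm4 was not tested.

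Pacemaker channels open on hyperpolarisation and set firing rhythm in heart and brain, and Hcn2, Hcn3 and Hcn4 were higher in EYFP than in EGFP cells. Hcn4, the isoform of the sinus node, stood at 48.4 and 39.3 CPM in EYFP cells, 7.72 and 9.22 CPM in EGFP cells, and 0.416 and 0.724 CPM in WT epithelium (EYFP over EGFP, log2 fold change 2.37 ± 0.24, edgeR adjusted p = 0.000545). All 3 groups lay apart, and EGFP cells were above WT (3.83 ± 0.31, edgeR adjusted p = 9.51e-05). Hcn2 stood at 8.81 and 9.0 CPM in EYFP cells, 3.86 and 4.23 CPM in EGFP cells, and 4.91 and 5.25 CPM in WT epithelium. Hcn3 stood at 13.4 and 12.9 CPM in EYFP cells, 2.77 and 6.0 CPM in EGFP cells, and 4.75 and 3.20 CPM in WT epithelium. These 2 genes passed with all libraries between EYFP and EGFP cells (1.13 ± 0.27 and 1.55 ± 0.39), but the call of Hcn2 was lost without any 1 of the 4 libraries (edgeR adjusted p from 0.0595 to 0.0755). The call of Hcn3 was lost without EYFP replicate 1 (0.073), EYFP replicate 2 (0.0634) or EGFP replicate 1 (0.0846), and its log2 fold change was 2.23 without EGFP replicate 2.

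TRP channels went both ways. Trpa1 (chromosome 1, 14872644 to 14918862) had the highest level per transcript length of the 67 genes in EYFP cells. It stood at 749 and 754 CPM in EYFP cells, 108 and 140 CPM in EGFP cells, and 11.2 and 8.14 CPM in WT epithelium, with no overlap between groups. Its log2 fold change between EYFP and EGFP cells was 2.60 ± 0.21 (edgeR adjusted p = 0.000277). The canonical TRP genes, receptor-operated cation channels, rose with it. Trpc7, whose channel is opened by diacylglycerol, stood at 117 and 90.2 CPM in EYFP cells, 11.1 and 17.4 CPM in EGFP cells, and 0.333 and 0.784 CPM in WT epithelium (2.85 ± 0.28). Trpc4 stood at 48.9 and 35.3 CPM in EYFP cells, 5.79 and 8.2 CPM in EGFP cells, and 0.416 and 0.422 CPM in WT epithelium (2.58 ± 0.26). Its heteromer partners Trpc1 and Trpc5 rose by 2.03 ± 0.30 and 2.37 ± 0.47 on the log2 scale. The edgeR adjusted p of Trpc7, Trpc4, Trpc1 and Trpc5 were 0.000647, 0.000567, 0.00208 and 0.00699, and the call of Trpc5 was lost without EYFP replicate 2 (0.0526) or EGFP replicate 1 (0.0527). Trpc1 stood at 22.2 and 17.2 CPM in EYFP cells and 4.82 CPM in each EGFP library. The X-linked gene Trpc5 stood at 4.65 and 7.66 CPM in EYFP cells and 1.08 and 1.27 CPM in EGFP cells; the antisense-named gene Trpc5os overlaps it, and the strand setting of the counting is not given.

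Trpm4 and Trpm7 were the TRP genes of WT epithelium. Trpm4, a cation channel opened by intracellular calcium that carries no calcium itself (chromosome 7, 45303155 to 45334071), stood at 31.6 and 38.4 CPM in EYFP cells, 119 and 167 CPM in EGFP cells, and 209 and 305 CPM in WT epithelium. The groups did not overlap and ran in the opposite order to Trpa1. EYFP cells were lower than EGFP cells by a log2 fold change of -2.03 ± 0.25 (edgeR adjusted p = 0.00124). Trpm7, a ubiquitous channel with a kinase domain, stood at 79.6 and 85.7 CPM in EYFP cells and 77.8 and 72.7 CPM in EGFP cells and did not pass (log2 fold change 0.14 ± 0.13, with an edgeR adjusted p of 0.437). Trpm2, a channel gated by ADP-ribose, stood at 93.9 and 166 CPM in EYFP cells, 23.5 and 88.7 CPM in EGFP cells, and 3.33 and 5.0 CPM in WT epithelium. The EGFP libraries differed widely from each other and the difference did not pass (1.2 ± 0.68, edgeR adjusted p = 0.232), but it passed without EGFP replicate 2 (2.46, adjusted p = 0.0153) and was 0.61 without EGFP replicate 1.

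The sensory TRP genes at low level were Trpm8 and Trpv2. Trpm8, the receptor for cold and menthol, had 17 and 19 counts in EYFP cells, 0 and 1 counts in EGFP cells and 0 in WT epithelium. Its level was 27.8-fold higher in EYFP than in EGFP cells (95% counting interval 4.68 to 1130), and the edgeR adjusted p of 0.0127 rose to 0.0646, 0.0901 and 0.0544 without EYFP replicate 2, EGFP replicate 1 and EGFP replicate 2. The level was 16.3-fold higher without EGFP replicate 1 (counting interval 2.75 to 663) and at least 3.82-fold higher without EGFP replicate 2, from a floor of 3 counts. Trpv2, a cation channel known from immune cells and sensory neurons, stood at 2.19 and 1.85 CPM in EYFP cells and 0.603 and 0.507 CPM in EGFP cells (log2 fold change 1.86 ± 0.51, with an edgeR adjusted p of 0.0246), and its call was lost without any 1 of these libraries (adjusted p from 0.0779 to 0.147) and in the DESeq2 Wald test (0.0517). The sum of 8 immune cell markers was 225 CPM in 1 EYFP library, where Lyz2 was at 207 CPM, and 8.58 CPM in the other. It was 16.3 to 49.0 CPM in EGFP cells and 166 to 190 CPM in WT epithelium, and its part in Trpv2 and Trpm2 was not tested. Trpv6, the calcium uptake channel of duodenal enterocytes, had 7 and 11 counts in EYFP cells, 0 and 12 counts in EGFP cells, and 2 and 0 counts in WT epithelium. Trpm6, a magnesium uptake channel, was at 0.705 and 2.10 CPM in EYFP cells, 1.45 and 1.69 CPM in EGFP cells, and 1.75 and 2.89 CPM in WT epithelium, and neither passed in any comparison. Trpc6, a relative of Trpc7, held 25 counts over the EYFP libraries and 9 over the EGFP libraries and did not pass. Trpc2 had 45 counts in EGFP replicate 2 and 12 in EYFP replicate 1 and none in the other 4 libraries; genes named Xntrpc and Xndc1 overlap it, so its counts are uncertain.

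Both sorted groups were then set against WT epithelium, the group for which no reporter is named. These comparisons share the 2 WT libraries. In EGFP cells 26 of the 40 tested channel genes were higher and 2 were lower, where 19.6% of all genes tested were higher and 21.9% lower. In EYFP cells 31 were higher and 4 were lower, where 27.1% of all genes were higher and 33.5% lower. Both EGFP libraries were above both WT libraries for 28 of the 40 and below for 6 (all genes tested, 35% and 36.2%). Both EYFP libraries were above both WT libraries for 33 and below for 4 (37% and 45%). With each library left out in turn, 22 of the 26 and 27 of the 31 were called every time. The calls lost were those of Cacna2d2, Scn3b, Scn7a and Trpm2 in EGFP cells, and of Cacna1g, Hcn2, Trpc6 and Trpv2 in EYFP cells. Scn3a had a log2 fold change over WT of 6.94 ± 0.27 in EYFP cells and 4.33 ± 0.25 in EGFP cells. Trpa1 had 6.28 ± 0.26 in EYFP cells and 3.68 ± 0.23 in EGFP cells. Cacna1h had 5.85 ± 0.21 in EYFP cells and 3.66 ± 0.20 in EGFP cells, and Cacna1a had 5.12 ± 0.17 and 3.12 ± 0.16. All 8 values had an edgeR adjusted p of at most 3.61e-05.

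Some genes were above WT in both sorted groups and missed the threshold between them. Cacna1b, which did not differ between EYFP and EGFP cells beyond the test, was higher than WT in both, by log2 fold changes of 5.11 ± 0.43 in EYFP cells and 4.76 ± 0.43 in EGFP cells (edgeR adjusted p = 4.19e-05 and 0.00014). The 95% interval of its difference between EYFP and EGFP cells was -0.64 to 1.34 on the log2 scale. Scn11a had 49 counts over the EYFP libraries, 36 over the EGFP libraries and 0 in WT epithelium, where the floor of 3 counts puts it at least 17.9-fold higher in EYFP cells and at least 17.1-fold higher in EGFP cells. Scn9a, at 139 counts in EYFP cells and 32 in EGFP cells, was at least 50.8-fold and at least 15.2-fold higher by the same floor. These bounds scale with WT depth, and without WT replicate 2 they were 7.52 and 7.16 for Scn11a and 21.3 and 6.37 for Scn9a. Hcn2, Hcn3 and Trpv2 were higher than WT in EYFP cells and did not pass in EGFP cells, and for each the EYFP against EGFP test above is the test of that difference. The genes below WT were Scnn1a, Scn2b, Trpm4 and Trpm7 in EYFP cells, and Trpm4 and Trpm7 in EGFP cells. The call of Scn2b was lost without EYFP replicate 1 (edgeR adjusted p = 0.0649), EYFP replicate 2 (0.099) or WT replicate 1 (0.0743), and with no filter on low counts (0.0607). Trpm4 had -2.88 ± 0.26 in EYFP cells and -0.84 ± 0.24 in EGFP cells, the second call being lost without EGFP replicate 1 (-0.51, edgeR adjusted p = 0.2) or WT replicate 2 (-0.54, 0.128). The small falls of Trpm7 (-0.35 ± 0.13 in EYFP cells and -0.49 ± 0.13 in EGFP cells) were lost without either EGFP library or WT replicate 2 in EGFP cells (edgeR adjusted p from 0.06 to 0.116), without any 1 of the 6 libraries in EYFP cells (from 0.056 to 0.254), and there also with DESeq2 size factors (-0.24, adjusted p = 0.135). The 8 enterocyte markers summed to 1190 to 1890 CPM in EYFP cells, 1250 to 1590 CPM in EGFP cells and 24500 to 41500 CPM in WT epithelium, and their part in the falls was not tested. The DESeq2 scaling moves the median of all genes by 0.11 in this comparison.

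**Figure D3:**
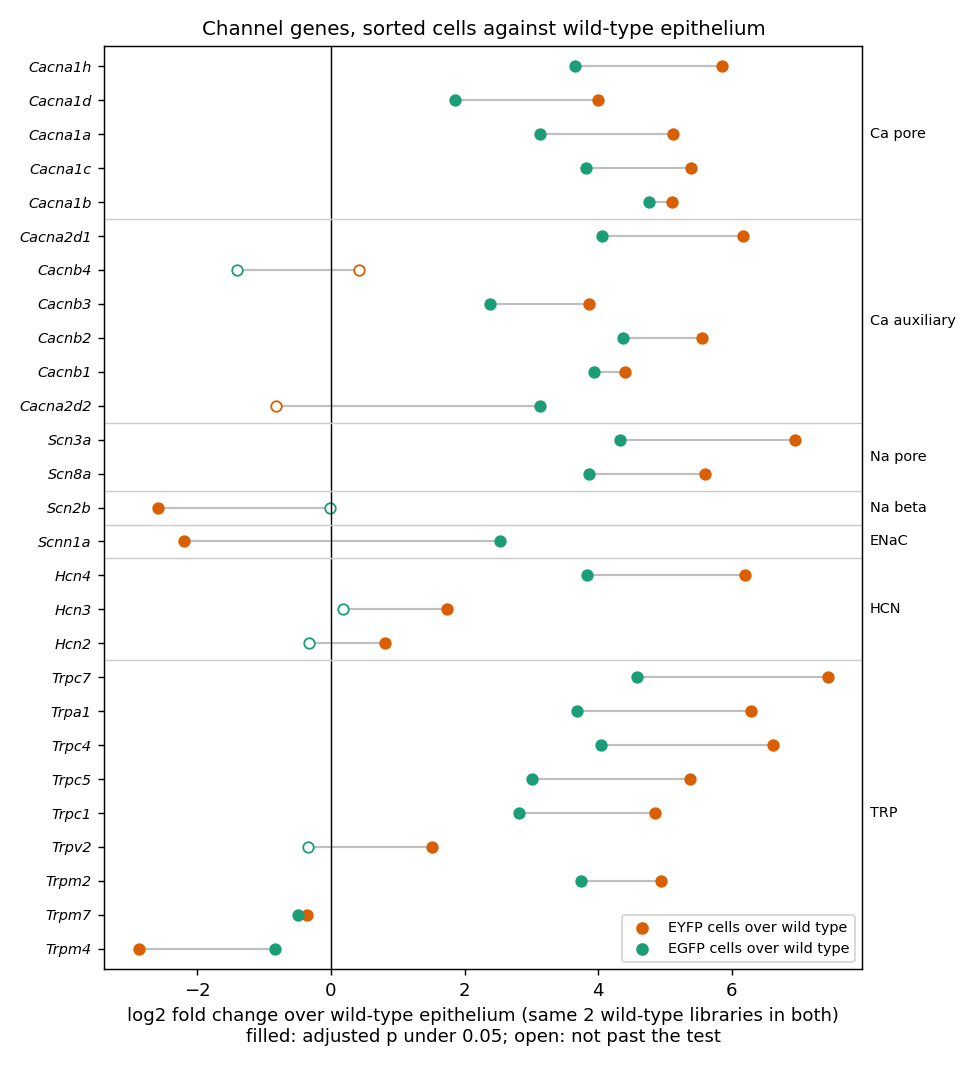
Log2 fold change over wild-type epithelium of the named channel genes, orange for EYFP cells and green for EGFP cells, joined by a line; filled points passed the edgeR test. Both points rest on the same 2 wild-type libraries; Trpm8 and Cacng4, with 0 and 1 counts over those libraries, are left out. Scnn1a is the gene whose filled points lie on both sides of 0, at -2.20 in EYFP cells and 2.54 in EGFP cells.

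Levels of different genes were compared per kilobase of transcript, with lengths from GENCODE M21, as an approximate scale. On it, Trpa1 averaged 176 CPM per kb in EYFP cells, followed by Cacna1a at 75.7, Cacnb3 at 62.7, Scn3a at 53.8, Cacna1h at 53.3 and Cacna2d1 at 51.7. The libraries of Scn3a (60.8 and 46.9) and Cacna1h (57.0 and 49.6) overlap each other and Cacna2d1 (52.3 and 51.2), so the order of these 3 is not resolved. In EGFP cells Trpm4 averaged 33.8, Scnn1a 32.9 and Trpa1 29.0 CPM per kb, with libraries that overlap, so their order is not resolved. The highest in WT epithelium were Trpm4 at 60.7 and Trpm7 at 15.0.

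The calcium pore, sodium pore and TRP families differed in how much their make-up changed. Cacna1a took 49.5% and 54.2% of the summed calcium pore level per kb in EYFP cells, 54.3% and 51.0% in EGFP cells, and 58.3% and 53.9% in WT epithelium, so its share was similar while the sum was 144 and 148 CPM per kb in EYFP cells, 33.5 and 38.6 in EGFP cells, and 3.79 and 3.97 in WT epithelium. Scn3a took 97.3% and 94.5% of the sodium pore level in EYFP cells, 89.2% and 91.9% in EGFP cells, and 85.9% and 95.1% in WT epithelium. This level leaves out the pore gene Scn2a1, described below. Unlike the calcium pore and sodium pore families, the TRP family changed its leading member between EYFP cells and WT epithelium. Trpa1 took 65.6% and 65.8% of the TRP level in EYFP cells and 33.6% and 30.7% in EGFP cells. Trpm4 took 37.6% and 37.0% in EGFP cells, close to Trpa1, and 72.2% and 78.4% in WT epithelium. The leading Hcn gene differed between EYFP cells and WT epithelium as well. Hcn4 took 48.3% and 43.7% of the Hcn level in EYFP cells, and Hcn2 took 50.8% and 56.7% in WT epithelium.

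**Figure D4:**
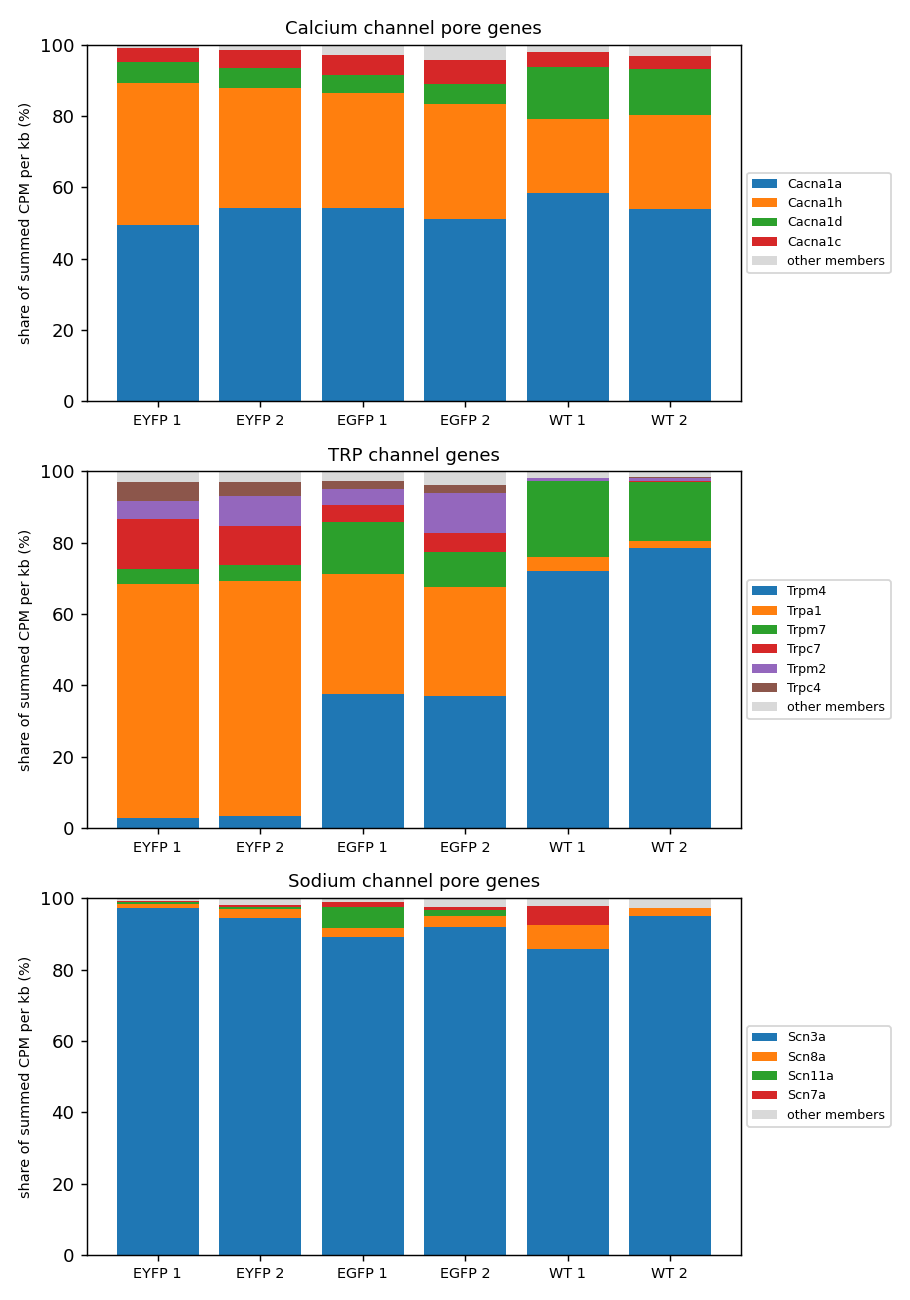
Share of each gene in the summed level per kilobase of the calcium pore, TRP and sodium pore genes, in percent, for each of the 6 libraries. Cacna1a and Scn3a lead their families in every library, whereas Trpa1 leads the TRP genes in EYFP cells and Trpm4 in wild-type libraries. In EGFP libraries Trpm4 stands slightly above Trpa1, an order that is not resolved on this approximate scale.

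Other genes of calcium and cation handling, from 5 lists, were read beside the channels, for EYFP against EGFP cells, where all genes tested had 16.8% higher and 19.4% lower. Of 18 partners and regulators of calcium and sodium channels tested, 11 were higher in EYFP than in EGFP cells, 0 were lower and 7 missed the threshold, at a median log2 fold change of 1.85 against 0.01 for all genes. Rrad, a small GTPase that binds calcium channel beta subunits, had 19.3 and 10.1 CPM in EYFP cells and 1.93 and 1.61 CPM in EGFP cells (a difference of 3.06 ± 0.41 on the log2 scale, edgeR adjusted p = 0.0015). Its relative Gem had 29.3 and 58.9 CPM in EYFP cells and 8.08 and 6.17 CPM in EGFP cells (2.64 ± 0.64), a call lost without EYFP replicate 2 (2.04, edgeR adjusted p = 0.0933), EGFP replicate 1 (0.111) or EGFP replicate 2 (0.142), and with no filter on low counts (0.104). Rims2, a scaffold that ties calcium channels to release sites, had 64.9 and 64.5 CPM in EYFP cells and 10.01 and 16.07 CPM in EGFP cells (2.30 ± 0.23, edgeR adjusted p = 0.000559).

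Calcium pumps and exchangers had 3 of 7 higher, 1 lower and 3 not past, with a median of 1.02. Atp2b4, a plasma membrane calcium pump, and Slc8a1, the sodium-calcium exchanger, were higher by 2.36 ± 0.29 and 1.37 ± 0.27 on the log2 scale. Atp2a3, a pump of the endoplasmic reticulum, was lower in EYFP cells, at 474 and 394 CPM, against 1195 and 1313 CPM in EGFP cells (-1.53 ± 0.28, edgeR adjusted p = 0.00477), and both groups were above WT epithelium at 98.9 and 173 CPM. Genes of calcium stores and store-operated entry had 5 of 16 higher, 0 lower and 11 not past, with a median of 0.03. Itpr1, a release channel gated by inositol trisphosphate, had 307 and 251 CPM in EYFP cells and 77.3 and 75.5 CPM in EGFP cells (1.87 ± 0.20, edgeR adjusted p = 0.000683). Tmem38a and Micu3 also passed, with 1.53 ± 0.44 and 1.31 ± 0.30, but Tmem38a was lost without any 1 of the 4 libraries (edgeR adjusted p from 0.0983 to 0.14) and Micu3 without either EYFP library or EGFP replicate 1 (from 0.062 to 0.0827).

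Calcium-binding and calcium-sensing effectors had 7 of 24 higher, 2 lower and 15 not past, with a median of 0.28. Camk2b, a calcium- and calmodulin-dependent kinase of neurons, had 382 and 286 CPM in EYFP cells and 71.0 and 88.5 CPM in EGFP cells (2.06 ± 0.35, edgeR adjusted p = 0.00663). Rcan2, an inhibitor of calcineurin, was higher by 2.77 ± 0.33. Camk4 had a log2 fold change of -1.33 ± 0.36 (edgeR adjusted p = 0.0226), and the adjusted p was 0.122, 0.115 and 0.0652 without EYFP replicate 1, EGFP replicate 1 and EGFP replicate 2. Of 23 other cation channels tested, 2 were higher and 6 lower, 15 missed the threshold, and the median was 0.13. Piezo1, a mechanically gated channel, had 4.16 and 3.36 CPM in EYFP cells, 32.1 and 19.7 CPM in EGFP cells, and 10.99 and 10.19 CPM in WT epithelium (EYFP over EGFP, -2.77 ± 0.30, edgeR adjusted p = 0.000669). Mcoln2, a lysosomal cation channel of the mucolipin family, was lower by a log2 fold change of -2.83 ± 0.20. Tmem63c, of a family of channels opened by osmotic stretch, had 3.10 and 3.20 CPM in EYFP cells and 0 and 0.423 CPM in EGFP cells (3.66 ± 0.79, edgeR adjusted p = 0.0103), with 2.92 without EGFP replicate 1 and a level at least 8.69-fold higher without EGFP replicate 2.

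Markers of enteric neurons and glia, 10 in all, had a summed level of 142 to 146 CPM in EYFP cells, 33.6 to 53.5 CPM in EGFP cells and 4.1 to 4.66 CPM in WT epithelium. Ret carried most of it, at 118 and 123 CPM in EYFP cells. Sox10, which defines glia, had 0 counts in all 6 libraries. The 8 markers of stroma, muscle and endothelium summed to 19.9 to 21.8 CPM in EYFP cells, 4.99 to 17 CPM in EGFP cells and 1.83 to 27.8 CPM in WT epithelium. Pecam1 held most of the EYFP sum, at 18.68 and 14.55 CPM. Pecam1 and Myh11 were higher in EYFP than in EGFP cells (edgeR adjusted p = 0.00232 and 0.0348). Col1a1, Col1a2 and Col3a1 did not pass. The 7 tuft cell markers summed to 7.19 to 11.9 CPM in EYFP cells, 72.5 to 122 CPM in EGFP cells and 17.2 to 59.5 CPM in WT epithelium. The part of these cells in the channel values was not tested. Reads of Cacna1b, Cacna1d, Cacna1h, Cacna2d2 and Scn3a were in part divided with other genes in all 6 libraries, by their estimated counts that are not whole. Other genes overlap Cacna1c (Dcp1b), Cacna1d (Dcp1a and Chdh), Cacna1h (Tpsg1), Cacnb1 (Rpl19), Hcn3 (Pklr) and Trpm4 (Rpl14-ps1), whose reads may not be told apart without the strand. The remaining channel genes, 27 that did not pass the filter, reached at most 1.27 CPM in any library. Of these, 8 had 0 counts in all 6 libraries: Cacng1, Cacng3, Cacng6, Scn4a, Scn10a, Scnn1b, Scnn1g and Trpv5. With 3 counts as the limit that a count of 0 allows, a level of up to 0.362 CPM in the smallest library was not detectable. Trpv1, the capsaicin receptor, held at most 3 counts in any library, and Trpv3 and Trpv4, channels of skin and of osmotic sensing, had their highest counts in WT replicate 2, at 21 and 15.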

How the data were processed

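The values are estimated counts that the authors deposited for each gene, split across genes where a read matched more than 1 and so not always whole (here, off by more than 0.005). Per the submitters' processing notes, the tools included RSEM 1.3.1, Bowtie2, FastQC 0.11.8 and DESeq2 1.26.0, with build mm10; how they were set, and the strand, was not stated. The authors' own comparison table was not used. The columns used for EYFP cells carry EGFP and addon in their names, and were matched to the EYFP samples because only their titles hold addon.

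For testing, values were rounded, filtered with filterByExpr (edgeR 4.0.16, cutoff 0.829 CPM), TMM-scaled and fitted with 1 mean per group over all 6 libraries (quasi-likelihood, robust, R 4.3.3). Adjustment was Benjamini-Hochberg at 0.05 over 13935 genes, 3 residual degrees of freedom were left, and each SE came from the F value. The fit was tested on simulated counts. The smallest library gives 8.29 counts per CPM. Groups at 0 were set to a floor of 3 counts; groups with 1 to 3 counts have a ratio with an exact 95% interval. Both cover counting error only, and replicates differed by more than that.

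The channel genes and lists were chosen with earlier results of these data known. Channel genes were named with each library's value from 5 CPM in both libraries of any group, or from 1 CPM when past the EYFP against EGFP test. Each list names at most 3 genes, those with the largest change past that test from 1 CPM. Any other gene was named after its values were seen, and some genes that the rule names are not reported here. Alternatives were DESeq2 size factors and its Wald test (1.42.0), no filter, at least 10 counts, a replicate block, a fit to only the 4 libraries compared, and leaving out each library. Coordinates, overlaps and promoters are from RefSeq (GRCm38.p6).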

Additional observations from a re-analysis of the deposited data

Results flagged for a closer look

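Scnn1a moved in opposite directions against wild-type epithelium in the 2 sorted groups, lower in EYFP cells and higher in EGFP cells, with both libraries of each group on its side of both wild-type libraries. The difference was tested by the comparison of EYFP with EGFP cells, where the log2 fold change was -4.73 ± 0.20 (edgeR adjusted p = 6.95e-05).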

How the results depend on the processing

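Between EYFP and EGFP cells, 13 of the 22 higher and 3 of the 4 lower calls held with each library left out in turn, and 21 and 3 held under every other setting. The number higher ranged from 13 (without EYFP replicate 2 or EGFP replicate 1) to 22 and the number lower from 3 to 5 with 1 library left out, from 23 to 26 and from 0 to 2 for EGFP cells against wild type, and from 27 to 30 and from 2 to 4 for EYFP cells against wild type; each such fit also has fewer samples. In the fit to only the 4 libraries compared, edgeR called 0 channel genes lower in EGFP cells than in wild type, with 3 at an unadjusted p under 0.05, and the DESeq2 Wald test called 2. Without EGFP replicate 1 or wild-type replicate 2 the number was 0 as well, with 1 at an unadjusted p under 0.05. Values near 0 that did not pass changed sign under some settings, and the cause was not tested. In EGFP cells against wild type, the log2 fold change of Scn2b, -0.02 with all libraries, was 0.018 with DESeq2 size factors, 0.026 in the DESeq2 Wald test and 0.037 with only the 4 libraries, and ranged from -1.15 to 0.66 with 1 library left out. That of Hcn3 ranged from -0.50 to 0.70, of Tmem38a from -0.25 to 1.25 and of Tmem63c from -3.01 to 2.54 with 1 library left out. Scn11a, at -0.016 between EYFP and EGFP cells, was 0.057 with DESeq2 size factors, 0.037 in the Wald test, 0.084 with the replicate block and from -0.62 to 0.94 with 1 library left out. The labels do not say that replicate numbers pair the libraries, and the within-group differences of same-numbered libraries correlated by 0.0224, 0.0143 and 0.0964 across 13935 genes. With the replicate number as a block, 24, 25 and 31 channel genes were higher and 4, 2 and 4 lower in EYFP against EGFP, EGFP against wild type and EYFP against wild type. In this fit Scn9a (adjusted p = 0.0207) and Trpm2 (1.39, adjusted p = 0.0196) passed between EYFP and EGFP cells and Gem did not (0.0573), nor did Scn7a for EGFP cells against wild type (0.0607). At this depth, 1 CPM is 8.29 to 14.2 counts in a sorted library.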

Other observations

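The sodium channel pore gene listed as Scn2a1 did not match the symbols chosen and is not in the sodium pore shares above. It stood at 8.81 and 4.96 CPM in EYFP cells, 0.241 and 0.930 CPM in EGFP cells, and 0.0833 and 0.121 CPM in wild-type epithelium, so both EYFP libraries were above the other 4. It was looked at after its values were seen.

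The channel genes span long stretches of the genome. The median span was 117 kb for the 22 genes higher in EYFP than in EGFP cells, 30.8 kb for the 4 that were lower, 76.9 kb for the 40 tested and 15.6 kb for the 23576 genes of the table with a RefSeq span.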
